A study of Canis lupus familiaris with 36 samples.

Results

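NDRG1 (N-myc downstream regulated 1) is 1 of the 30424 genes in the count table of this RNA-seq study of CLBL-1 cells, and its row was found through the Ensembl identifier ENSCAFG00000001141, which the study pairs with that symbol. CLBL-1 was established from the diffuse large B-cell lymphoma of a dog and is the only cell line in the study. Its cells were incubated for 24, 48 or 72 h with 1 µM Ibrutinib (Ibr), an inhibitor of Bruton's tyrosine kinase (BTK), with 5 µM AS-605240 (AS), an inhibitor of phosphoinositide 3-kinase (PI3K), with both (Ibr + AS) or with the solvent dimethyl sulfoxide alone (DMSO). The inhibitors were dissolved in DMSO, so every group was exposed to the solvent. The control medium held as much DMSO as the medium of the combination, while the amount with a single agent is not stated in the study. Each of these 12 groups was made up of 3 libraries, 1 per cell passage (p121, p126 and p128, numbered replicates 1, 2 and 3), and all passages come from the same line, so that p-values measure the spread between passages of 1 line and not between dogs. The study asked how BTK and PI3K inhibition, alone and together, change the transcriptome.

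NDRG1 encodes a cytoplasmic protein of the alpha/beta hydrolase fold family that lacks the catalytic residues of an enzyme. Its transcript is a classical target of hypoxia-inducible factor (HIF), accumulates with low oxygen, iron chelation and endoplasmic reticulum stress, is raised by p53 and is repressed by MYC. The protein is phosphorylated by the kinase SGK1, which is activated by mTOR complex 2 downstream of PI3K, and phosphorylated NDRG1 is widely used as a readout of SGK1 activity. RNA-seq counts transcripts and carries no information on this phosphorylation.

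NDRG1 was close to absent from the read counts of CLBL-1 cells. Whether the gene annotation or the strand setting of the counts lowered its level was not tested. Only 32 of the 432131089 reads that were counted on genes over all 36 libraries fell on NDRG1, which corresponds to a level of 0.074 CPM (read counts scaled to library size, with edgeR's TMM factors) with an exact 95% Poisson interval of 0.0506 to 0.104 CPM. Of the 20562 genes with any read, 14010 (68.1%) had more reads than NDRG1 and 6502 had fewer, without scaling to gene length, and the median gene with reads had 690. No read of NDRG1 was counted in 14 libraries, 1 read in 13, 2 reads in 8 and 3 reads in 1. The intervals given for NDRG1 cover counting error only and not the spread between libraries. Reads without molecular identifiers are not independent molecules, so the intervals may be too narrow even for counting error.

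Depth ranged from 9941919 to 14703839 reads per library (median 11888025), and 3 reads in a library, taken as the floor of detection, corresponded to 0.198 to 0.308 CPM. No library held more than 3 reads of NDRG1. No fold change between groups is therefore given for NDRG1, and its levels are reported as reads, as CPM and as differences in CPM. The B-cell identity of the libraries was checked with TNFRSF13C, the receptor of the B-cell survival factor BAFF, and 4 genes of major histocompatibility complex class II (DLA-DRA, DLA-DQA1, DLA-DMA and DLA-DOA), and the summed level of all 5 markers was between 3100 and 6404 CPM. TNFRSF13C was at 70.6 to 305 CPM and DLA-DRA alone at 2089 to 4723 CPM, so the sum mostly reflects the class II genes. The 4 markers of T and NK cells (IL2RB, CD226, TCF7 and IFNG) summed to at most 0.772 CPM and 2 mesenchymal markers (COL14A1 and CTHRC1) to at most 0.278 CPM. Of the other marker pairs, TREM2 of myeloid cells had no read in 32 libraries whereas LYZ was at 65.5 to 311 CPM, and ESRP1 of epithelial cells was at 13.8 to 24.2 CPM whereas GRHL2 reached at most 0.338 CPM. The part of other cells in the NDRG1 reads was not tested. CD79A, MS4A1 and PAX5 were not paired with an identifier and were not analysed here.

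With DMSO alone, NDRG1 reads in passages p121, p126 and p128 were 0, 1 and 0 at 24 h, 2, 0 and 0 at 48 h and 2, 1 and 2 at 72 h. The level was 0.022 ± 0.0381 CPM (SD, n = 3) at 24 h, 0.054 ± 0.0935 CPM at 48 h and 0.131 ± 0.0352 CPM at 72 h. At 24 and 48 h the reads came from a single library each, while at 72 h every DMSO library held at least 1 read.

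Under AS, NDRG1 had 0 reads in all 3 libraries at 24 h, 1, 0 and 0 reads at 48 h, and 2 reads in each library at 72 h. The 0 reads at 24 h allow a level of up to 0.0826 CPM over the group, which is what 3 reads would give. The AS libraries at 72 h were at 0.168 ± 0.0112 CPM (SD, n = 3), and they did not overlap with the AS libraries at 24 h.

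Under Ibr, the reads in the same order of passages were 1, 2 and 0 at 24 h, 0, 0 and 1 at 48 h, and 0, 1 and 1 at 72 h. These correspond to 0.0799 ± 0.0777, 0.0319 ± 0.0552 and 0.0588 ± 0.0518 CPM (SD, n = 3). The study left the third of the Ibr 72 h libraries out of its models, and without it the 72 h group held 1 read in 2 libraries. Ibr was the only treatment in which NDRG1 did not have its highest level at 72 h, but its libraries overlapped at all 3 times.

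With Ibr + AS, 1 read was counted in each library at 24 h, 2, 0 and 1 reads at 48 h, and 3, 1 and 1 reads at 72 h. The level was 0.084 ± 0.00786 CPM at 24 h, 0.0877 ± 0.0892 CPM at 48 h and 0.143 ± 0.0806 CPM at 72 h (SD, n = 3). The 3 reads in passage p121 at 72 h were the most in any library.

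**Figure D1:**
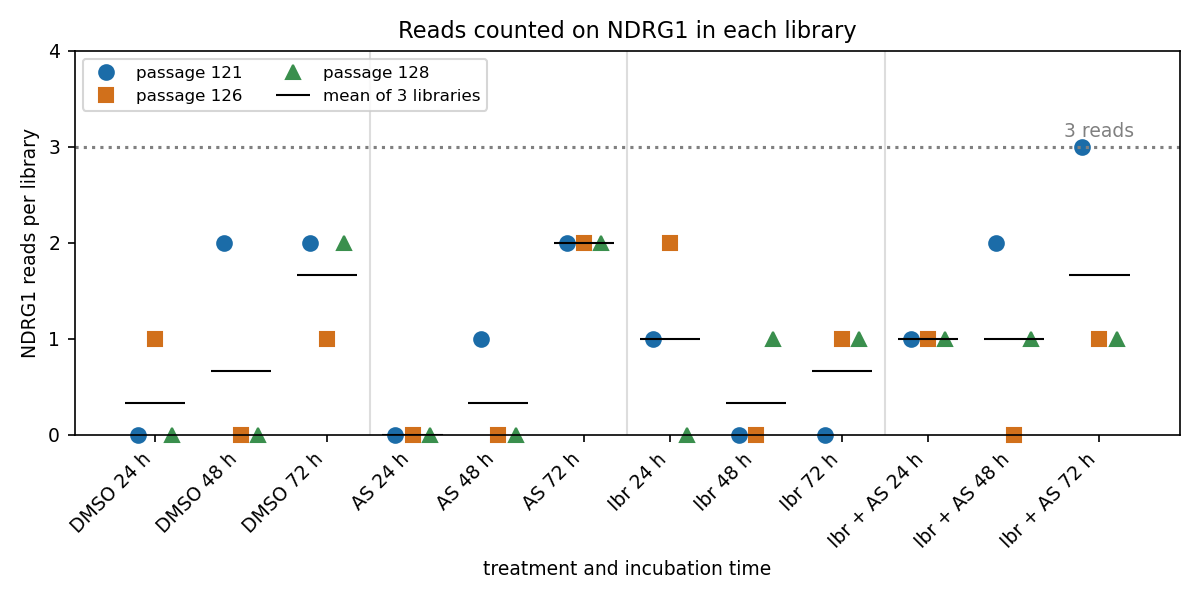
NDRG1 reads in each of the 36 libraries. The x axis gives treatment and incubation time, the y axis the number of reads, symbols mark the passage, short lines the mean of 3 libraries and the dotted line the floor of 3 reads. All 3 libraries of AS 72 h sit at 2 reads and all 3 of AS 24 h at 0, and no library is above 3 reads.

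Ordered by reads summed over the group, NDRG1 was highest in AS 72 h with 0.168 CPM (exact 95% Poisson interval 0.0615 to 0.365 CPM), followed by Ibr + AS 72 h with 0.149 CPM (0.0484 to 0.348) and DMSO 72 h with 0.133 CPM (0.0432 to 0.31). The next 3 groups were Ibr + AS 48 h with 0.0899 CPM, Ibr 24 h with 0.0871 CPM and Ibr + AS 24 h with 0.0836 CPM. Ibr 72 h with 0.0546 CPM and DMSO 48 h with 0.0521 CPM followed. The lowest groups were Ibr 48 h with 0.0307 CPM, AS 48 h with 0.0268 CPM, DMSO 24 h with 0.0246 CPM and AS 24 h with 0 reads. The reads of the libraries lay apart in 9 of all 66 pairs of groups, each of which held AS 72 h or AS 24 h. In each of the 11 pairs of neighbours in this order the reads overlapped, and in 0 of the 66 pairs did the counting intervals lie apart. The order therefore ranks the counts obtained and does not separate neighbouring groups.

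**Figure D2:**
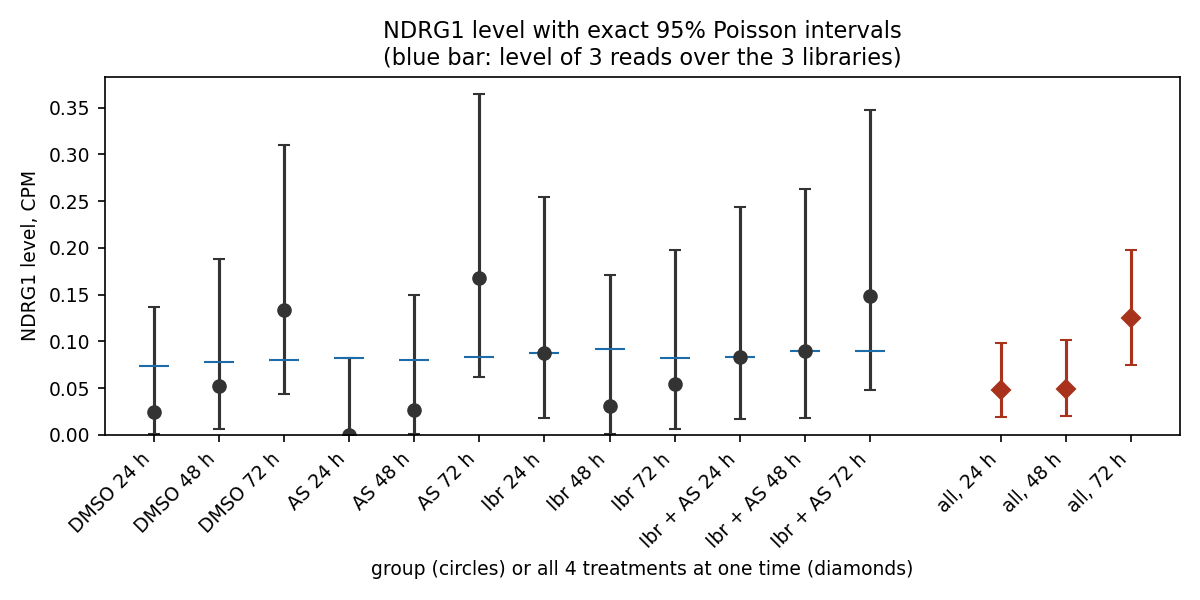
NDRG1 level in CPM from the summed reads of each group of 3 libraries (circles) and of all 12 libraries of an incubation time (diamonds). Vertical bars are exact 95% Poisson intervals (for AS 24 h, with 0 reads, the bar ends at the level of 3 reads) and blue bars mark 3 reads over the group. Intervals of the 12 groups overlap, and the 72 h diamond lies at 0.125 CPM against 0.0475 and 0.0494 CPM at 24 and 48 h.

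None of the 26 comparisons in which NDRG1 was tested met the study's criteria for a differentially expressed gene (DEG), which are an adjusted p no higher than 0.05 together with a log2 fold change beyond 1 in either direction. With edgeR's quasi-likelihood test and Benjamini-Hochberg adjustment over all genes, 0 comparisons were called, 1 had an unadjusted p under 0.05, and the adjusted p ranged from 0.166 to 1. DESeq2 gave 1 unadjusted p under 0.05. Its filter on low counts set NDRG1 aside, so it gave no adjusted p in any of the 26 comparisons and could call none. A missing call is a statement about this depth and does not show that NDRG1 stayed the same.

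The first question for NDRG1 was whether a treatment changed it against DMSO of the same incubation time. In these 9 comparisons the lowest adjusted p of edgeR's quasi-likelihood test was 0.546, for Ibr + AS at 24 h, where reads of 1, 1 and 1 stood against 0, 1 and 0. Over all tested genes, 0.198%, 0.611% and 2.19% were called with AS at 24, 48 and 72 h. At the same times, 1.12%, 2.00% and 3.99% were called with Ibr, and 8.26%, 7.69% and 7.53% with Ibr + AS. NDRG1 was among none of these DEGs, and its reads overlapped with those in DMSO in all 9 comparisons.

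Ibr + AS was next compared with each single agent. Against Ibr, 2.88%, 2.77% and 1.73% of all tested genes were called at 24, 48 and 72 h, and against AS 4.76%, 5.37% and 3.22%. For NDRG1 the lowest adjusted p was 0.23 with edgeR's quasi-likelihood test, against AS at 24 h, where 1 read in each Ibr + AS library stood against 0 reads in each AS library. These libraries did not overlap, but the difference is 1 read per library. Departure from additivity on the log2 scale, that is, an effect of Ibr + AS other than the sum of the effects of Ibr and AS, was called for 0.894%, 2.28% and 2.61% of all tested genes at 24, 48 and 72 h. For NDRG1 its adjusted p was between 0.723 and 0.835 in edgeR's quasi-likelihood test.

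The lowest p-value for NDRG1 came from 1 contrast of incubation times. The next lowest, an unadjusted 0.0837 in edgeR's quasi-likelihood test, was that of Ibr + AS against AS at 24 h. In AS at 72 h against 24 h, where 6 reads stood against 0, edgeR's quasi-likelihood test gave an unadjusted p of 0.0164 and an adjusted p of 0.166, and DESeq2 an unadjusted p of 0.0322. In this comparison 1.18% of all tested genes were called. The same contrast called 0.959% of genes for Ibr and 1.52% for Ibr + AS, and NDRG1 had adjusted p-values of 0.879 and 0.839 there. In DMSO, 0.717% of tested genes were called at 48 h and 6.36% at 72 h, both against 24 h, and NDRG1 had adjusted p-values of 0.911 and 0.419 in edgeR's quasi-likelihood test. Whether the change from 24 h to 72 h under a treatment differed from that in DMSO was tested as well, and over all genes this called 1.74% (AS), 3.92% (Ibr) and 7.85% (Ibr + AS). NDRG1 had adjusted p-values of 0.429 to 0.726 in these 3 contrasts, so a difference between treatments in its course over time was not detectable at this depth.

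How few reads a called gene had shows where NDRG1 stood. The called gene with the fewest reads in the libraries compared had between 5 and 14 reads, depending on the comparison. NDRG1 had between 1 and 17 reads in the same libraries, and fewer reads than any called gene in 16 of the 26 comparisons. Among genes with at most 10 reads in the libraries compared, at most 0.946% were called in any comparison.

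Because single groups held so few NDRG1 reads, they were also summed over the 4 treatments, a step chosen after the counts had been seen. At 24 h, 7 reads of NDRG1 were counted in 12 libraries, 6 of which had none, which gives 0.0475 CPM (exact 95% Poisson interval 0.0191 to 0.0979). At 48 h, 7 reads in 12 libraries, 7 of which had none, gave 0.0494 CPM (0.0199 to 0.102). At 72 h, 18 reads were counted, only 1 library had none, and the level was 0.125 CPM (0.0743 to 0.198). Of all 32 reads of NDRG1, 18 thus came from the 72 h libraries, although the 72 h interval still overlapped with those at 24 and 48 h.

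Libraries of the same passage and treatment were paired across times and tested with a two-sided exact sign-flip permutation test on CPM, 1 of 6 such tests, with the third of the Ibr 72 h libraries left out. NDRG1 was higher at 72 h than at 48 h in 9 of 11 pairs, lower in 1 and equal in 1, with means of 0.129 and 0.0461 CPM and a difference of 0.0833 ± 0.0669 CPM (SD; exact p = 0.00586, adjusted over the 6 tests 0.0352). It was higher at 72 h than at 24 h in 9 of 11 pairs and lower in 2, with a difference of 0.0786 ± 0.0972 CPM (exact p = 0.0244, adjusted 0.0732). Between 48 and 24 h the difference was 0.00374 ± 0.091 CPM in 12 pairs (exact p = 0.809, adjusted 0.975). Only the difference between 72 h and 48 h passed the threshold after adjustment. That adjustment covers the 6 tests and not the choice to pool, which was made after the counts had been seen. These tests count the treatments of a passage as separate pairs, although they come from only 3 passages of 1 line, and their p-values are too small if such pairs vary together. With the passage as the unit, NDRG1 was higher at 72 h than at 48 h by 0.0326 CPM in p121, 0.114 CPM in p126 and 0.11 CPM in p128 (exact permutation p = 0.25, the smallest that 3 passages can give). The difference between 72 h and 48 h remained positive with any passage left out, at 0.112 CPM without p121 (higher in 7 of 7 pairs), 0.0658 CPM without p126 (5 of 7) and 0.0732 CPM without p128 (6 of 8). The adjusted exact permutation p was then 0.0938, 0.188 and 0.188, so the difference passed in none of these smaller tests. Before adjustment, only the test without p121 was at the smallest exact permutation p that 7 pairs can give, 0.0156. The unadjusted exact permutation p was 0.0938 without p126 and 0.0312 without p128, above the smallest that their pairs can give.

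The 2 sequencing runs that the sample-sheet numbers in the table header imply were not balanced over the times. The first run held 8 of the 24 h libraries and 4 of the 72 h libraries, and the second run 4 and 8. Within the first run NDRG1 was at 0.0588 CPM at 24 h, 0.0704 CPM at 48 h and 0.134 CPM at 72 h. Within the second run the levels were 0.0221, 0.0284 and 0.12 CPM. In both runs the 72 h libraries had the highest level, but the counting intervals overlapped. In the first run they were 0.0216 to 0.128 CPM at 24 h and 0.054 to 0.277 CPM at 72 h. The 72 h libraries of the first run were all of p121, and the 24 h libraries of the second all of p128. The levels of a run at different times thus mix passages. All libraries of p121 were in the first run, however, and all of p128 in the second. Within each of these passages the times can be compared in the same run. In p121 NDRG1 was higher at 72 h by 0.0937 CPM than at 24 h and by 0.0326 CPM than at 48 h. In p128, without the third of the Ibr 72 h libraries, these differences were 0.112 and 0.11 CPM. The difference within a passage was not tested. The 72 h cells of passage p128 were harvested on another date than the other cells of that passage according to the sample sheet, and without them NDRG1 was at 0.126 CPM (0.0651 to 0.22) at 72 h.

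Summed over the 3 incubation times, NDRG1 had 11 reads in the 9 libraries of Ibr + AS, 8 in those of DMSO, 7 in those of AS and 6 in those of Ibr. The level was 0.0686 CPM with DMSO (exact 95% Poisson interval 0.0296 to 0.135), 0.0579 CPM with Ibr (0.0212 to 0.126), 0.064 CPM with AS (0.0257 to 0.132) and 0.107 CPM with Ibr + AS (0.0534 to 0.191). All 4 intervals overlapped. In the paired test against DMSO, NDRG1 was higher with Ibr + AS in 7 of 9 pairs of the same passage and time, lower in 1 and equal in 1, with a difference of 0.0358 ± 0.0571 CPM (exact permutation p = 0.0703, adjusted 0.141). The differences were -0.00391 ± 0.0469 CPM for AS (9 pairs, exact permutation p = 0.812, adjusted 0.975) and -0.00315 ± 0.0993 CPM for Ibr (8 pairs, exact permutation p = 1, adjusted 1). No treatment passed the threshold for NDRG1. By passage, the reads of NDRG1 numbered 14 in passage p121 and 9 in each of the other passages.

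Genes that act with NDRG1 or share its known triggers were read in the same libraries, and most of them had enough reads for a fold change. They come from 5 lists with 36 genes in all, limited to symbols paired with an identifier in the parts of the study's gene lists used here, and many well-known HIF targets were not analysed here. Each list was read in DMSO at 72 h against 24 h and in each treatment against DMSO at 72 h. All 4 comparisons use the same DMSO 72 h libraries, so a high or low value in those libraries enters each of them. Of all 36 genes, 10 were called under Ibr + AS, beside 7.53% of all genes tested, 6 under Ibr (3.99% of all genes), 2 under AS (2.19%) and 4 in DMSO over time (6.36%). These shares include genes that can hardly be called. Under Ibr + AS at 72 h, 5447 of 18670 genes tested had at most 10 reads, and 36 of those were called. A share over genes as well read as the lists would be higher.

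Of 12 transcripts listed as responsive to low oxygen, 2 were called in DMSO at 72 h against 24 h and both rose, beside 6.36% of all genes called. P4HA2, a subunit of the collagen prolyl 4-hydroxylase, rose from 2.1 ± 0.632 to 11.5 ± 2.3 CPM (SD, n = 3), a log2 fold change of 2.40 ± 0.16 (SE; adjusted p = 4.59e-47, edgeR's quasi-likelihood test). IER3, an immediate early response gene, rose from 7.65 ± 0.777 to 18.6 ± 3.59 CPM. The median log2 fold change of the list was 0.35, against 0.02 for all genes tested. NDUFA4L2, a mitochondrial protein and HIF target, was at 0.158 ± 0.0665 CPM in DMSO at 72 h and at 0.1 ± 0.107 CPM at 24 h, with at most 3 reads per library, and was not called.

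Under Ibr + AS at 72 h, 7 of these 12 genes were called, 2 higher and 5 lower than in DMSO, beside 7.53% of all genes. P4HA2 fell to 1.99 ± 0.354 CPM (log2 fold change -2.52 ± 0.22 SE, adjusted p = 9.85e-16, edgeR's quasi-likelihood test). IER3, the heparan sulfate polymerase gene EXT1, the kinase scaffold gene AKAP12 and the ubiquitin ligase gene NEDD4L also fell, with log2 fold changes of -1.25, -1.22, -1.52 and -1.05. HMOX1, which encodes heme oxygenase 1 and also responds to oxidative stress, rose from 3.21 ± 0.553 to 41.8 ± 18.2 CPM, with a log2 fold change of 3.72 ± 0.37 (SE; adjusted p = 3.18e-08, edgeR's quasi-likelihood test), and MYH9, a non-muscle myosin heavy chain, rose with a log2 fold change of 1.02. NEDD4L and MYH9 lay close to the limit of 1, and small shifts of the log2 fold change changed their calls. Over the 12 alternatives NEDD4L was between -1.09 and -0.99 and was not called when the 72 h libraries of replicate 3 were left out. MYH9 was between 0.90 and 1.08 and was not called without replicate 2. The median of the list was -0.74, against 0.00 for all genes.

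The single agents were compared with DMSO in the same way. Under Ibr at 72 h, 3 of the 12 were called beside 3.99% of all genes, HMOX1 higher with a log2 fold change of 1.43 and IER3 and EXT1 lower with -1.27 and -1.33. The log2 fold change of HMOX1 under Ibr was between 1.06 and 1.65 in all 12 alternatives. It was not called without replicate 2 (adjusted p = 0.586, edgeR's quasi-likelihood test), which leaves 1 Ibr library at 72 h that is assumed to vary like the other groups. Under AS, 0 of the 12 were called with edgeR's quasi-likelihood test and 0 with DESeq2, beside 2.19% of all genes, while 5 had an unadjusted p under 0.05 and the median log2 fold change was -0.17. The genes of this list thus moved in both directions under Ibr and Ibr + AS, while NDRG1 at 72 h had 6 reads in the AS group, 5 each in the DMSO and Ibr + AS groups and 2 in the Ibr group.

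SGK1, the kinase of NDRG1, was well detected. It was at 82.4 ± 4.96 CPM in DMSO at 72 h and fell to 32.6 ± 6.38 CPM under Ibr (SD, n = 2 libraries) and to 30.5 ± 5.3 CPM under Ibr + AS (n = 3), with log2 fold changes of -1.38 ± 0.28 and -1.41 ± 0.24 (SE; adjusted p = 0.000903 and 7.9e-05, edgeR's quasi-likelihood test). Under AS it was at 50.4 ± 5.21 CPM and was not called (adjusted p = 0.0598, edgeR's quasi-likelihood test). DEPTOR, an inhibitory subunit of mTOR complexes, rose with time in DMSO with a log2 fold change of 1.02 and fell under AS and Ibr at 72 h with -1.72 and -1.30. Under Ibr + AS it was at 4.51 ± 1.7 CPM against 3.56 ± 0.78 CPM in DMSO and was not called (log2 fold change 0.28). Leaving out replicate 1 or 2 leaves a single Ibr library at 72 h, whose spread is then taken from the other groups. In such fits SGK1 was not called under Ibr without replicate 2 (adjusted p = 0.151, edgeR's quasi-likelihood test), though its log2 fold change was between -1.52 and -1.20 in all 12 alternatives. DEPTOR was not called under Ibr without replicate 1, where its log2 fold change was -0.69 (adjusted p = 0.289, edgeR's quasi-likelihood test). In DMSO over time the log2 fold change of DEPTOR was below the limit without replicate 1 or replicate 3 and was 0.86 at the lowest. PRR5, a subunit of mTOR complex 2, and RPTOR, a subunit of mTOR complex 1, were called in none of the 4 comparisons with edgeR's quasi-likelihood test or with DESeq2, and their log2 fold changes lay between -0.54 and 0.56.

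The repressor MYC and the p53 targets MDM2 and RRM2B gave 0 calls in the 4 comparisons with edgeR's quasi-likelihood test, although between 1 and 3 of them had an unadjusted p under 0.05 in each. With 2.19% to 7.53% of all genes called in these comparisons, 0 calls among so few genes says nothing particular about them. MYC was at 135 ± 16.3 CPM in DMSO at 24 h and at 274 ± 3.2 CPM at 72 h, a log2 fold change of 0.99 ± 0.07 (SE; adjusted p = 8.22e-38, edgeR's quasi-likelihood test) that lay just inside the limit of 1. MYC was called in this comparison under 6 of 11 alternatives, DESeq2 and RLE size factors among them, with log2 fold changes of 0.93 to 1.09. NDRG1 had 1 and 5 reads in the same 2 groups. The 4 genes that control HIF and iron, among them HIF1AN, the asparagine hydroxylase that inhibits HIF, and the iron regulatory proteins ACO1 and IREB2, gave 0 calls with edgeR's quasi-likelihood test and 0 with DESeq2, with 1 to 3 unadjusted p under 0.05 in each comparison. Beside 2.19% to 7.53% of all genes called, 0 calls among these 4 genes again says nothing particular about them. HIF1AN was at 24.5 ± 1.82 CPM in DMSO at 24 h and at 15.1 ± 0.981 CPM at 72 h, with a log2 fold change of -0.73 ± 0.10 (SE; adjusted p = 4.65e-11, edgeR's quasi-likelihood test).

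Of 13 genes of the endoplasmic reticulum stress and amino acid response, 2 were called under Ibr + AS, beside 7.53% of all genes, and 1 each in DMSO over time (6.36% of all genes), under Ibr (3.99%) and under AS (2.19%). PSAT1, an enzyme of serine synthesis, was called in all 4 comparisons. It rose from 210 ± 6.72 to 648 ± 55.4 CPM with time in DMSO (log2 fold change 1.59 ± 0.07 SE) and stood at 165 ± 9.09 CPM under AS (n = 3), 183 ± 2.53 CPM under Ibr (n = 2) and 166 ± 8.59 CPM under Ibr + AS (n = 3) at 72 h. CRELD2, an endoplasmic reticulum chaperone gene, rose under Ibr + AS with a log2 fold change of 1.06, which came to 0.92 at the lowest and was not called when the 72 h libraries of replicate 3 were left out. ATF4, the transcription factor of this response, was between 749 and 955 CPM in the 4 groups at 72 h and was not called in any of the comparisons.

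**Figure D3:**
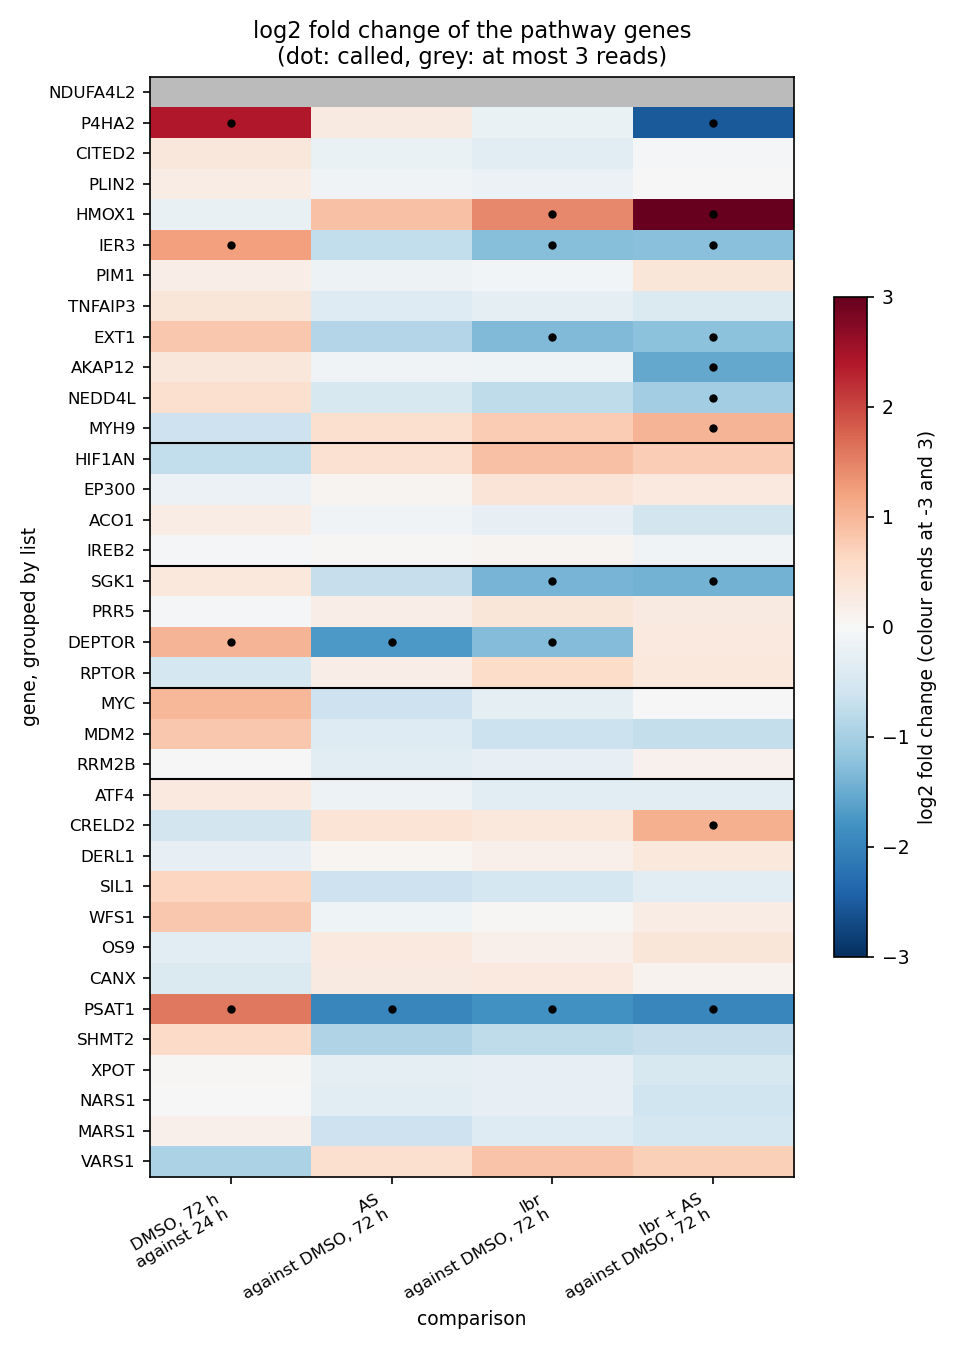
Log2 fold change of the 36 genes named beside NDRG1 (rows, parted by lines into the 5 lists, from top to bottom low oxygen, HIF and iron, SGK1 and mTOR, MYC and p53, and endoplasmic reticulum stress) in 4 comparisons (columns). Red is higher and blue lower in the first group of a comparison, grey marks NDUFA4L2 with at most 3 reads per library, a dot marks a called gene, and colours end at -3 and 3, which only HMOX1 with 3.72 under Ibr + AS exceeds. P4HA2 is red in DMSO over time and blue under Ibr + AS, and PSAT1 carries a dot in all 4 columns.

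The genes beside NDRG1 on its chromosome were read as well. In the gene order of the RefSeq annotation of the assembly UU_Cfam_GSD_1.0, which is not the build of the counts and is used for gene order only, 8 protein-coding genes next to NDRG1 were looked up after its counts had been seen, and 5 of them were paired with an identifier. On one side ST3GAL1, a sialyltransferase gene next to NDRG1, had 1429 to 2916 reads per library, and the zinc finger gene ZFAT beyond it had 125 to 270. On the other side SLA, an adaptor of lymphocyte receptors, had 83 to 238 reads, the thyroglobulin gene TG 0 to 5, and PHF20L1, a reader of methylated lysines, 1148 to 2780. NDRG1 had 0 to 3 reads per library beside these neighbours. The reads are not scaled to gene length, so they do not rank the genes by level, but 4 of the 5 neighbours were read in every library. No annotated gene overlapped NDRG1 in that assembly.

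Genes whose levels followed those of NDRG1 most closely were ranked by Pearson's r over the 12 group means of log2 CPM, as a description. These points share libraries, depth and a count of at most 6 reads of NDRG1 per group, and in counts this sparse such likeness is no finding. Of 10785 genes with at least 1 CPM, 1 reached an r of 0.9 over the group means (highest 0.917), and 0 did over the 35 libraries (highest 0.734). Among the 879 of them with a symbol, ERBB3, a receptor of the EGF receptor family, was highest with 0.82 over the group means and 0.56 over the libraries. RHPN1, NCAPH2, NUDT3, PHF1, CBX7, TBC1D22A, PPT2, FLOT1 and BAZ2A followed with 0.69 to 0.73. The most opposed were CDC73 with -0.80, MED23 with -0.79 and CNKSR3 with -0.77.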

How the data were processed

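Poly-A RNA of CLBL-1 cells was sequenced as single-end reads. The authors mapped the reads to CanFam3.1 with STAR 2.7.5a and deposited 1 table of raw counts per Ensembl gene, without normalization. The strand column kept is not given in the sources used here. For DMSO 24 h replicate 3 the title says p126 and the passage field p128, and p128 was used.

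The analysis used edgeR 4.0.16 with limma 3.58.1 under R 4.3.3 (TMM factors, robust quasi-likelihood fits, genes with at least 2 reads). The fit of 35 libraries had passage and the 12 groups as terms, without Ibr 72 h replicate 3 as in the study, and kept 18670 genes. The 9 DMSO libraries, fitted by themselves with 16468 genes, gave the DMSO time comparisons. P-values were adjusted by Benjamini-Hochberg over all genes of a fit. DESeq2 1.42.0 was the alternative tool. Standard errors follow from the quasi-likelihood F and the log2 fold change. Levels in CPM use TMM sizes of all 36 libraries, and exact Poisson intervals and permutation tests were computed in Python 3.11.15 with SciPy 1.17.1.

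The passages pair the libraries, as the labels and the study's design give them. After removal of group means, the median r between libraries was 0.0633 for the same passage (187 pairs) and -0.0284 for other passages (374 pairs). Counts of the 36 pairs of libraries of 1 group differed beyond read sampling (chi-square divided by its degrees of freedom between 1.87 and 26.9).

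Symbols came from the parts of the study's supplementary gene lists used here, which pair 1068 identifiers with a symbol. NDRG1, the pathway lists, the markers and the rule for named genes (NDRG1, the list members that were called, some uncalled members picked after their values were seen, and the 10 most like and 3 most opposed genes) were chosen with earlier results of these data known. Alternatives were DESeq2, RLE factors, other filters and fits, all 36 libraries, no passage term, each replicate left out and, added after seeing the data, the inferred sequencing run and the pooled permutation tests. No genome sequence was used here, so no coordinates or sequences are given.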

Additional observations from a re-analysis of the deposited data

How the results depend on the processing

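NDRG1 was called in none of the 26 comparisons under any alternative that kept it in the fit. These were 62 sets of fits, 0 of which held a call. The sets fitted with DESeq2 are among the 62 but could not hold a call, as they gave NDRG1 no adjusted p. The lowest adjusted p in the other sets, all from edgeR's quasi-likelihood test, was 0.116 (unadjusted 0.00853), for the treated cells at 72 h against 24 h without the replicate block. Without the replicate block of passages, 0 comparisons of NDRG1 were called, as with it. No value was obtained under filterByExpr, which removes NDRG1, and with DESeq2 its adjusted p was not assigned. Counts of the 36 pathway genes called were 3 to 5 in DMSO, 2 under AS, 4 to 6 under Ibr and 8 to 10 under Ibr + AS. The number of genes with an r of at least 0.9 was 1 over group means and 0 over libraries.

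Of the pooled differences of NDRG1, 3 turned their sign when a passage was left out. With a replicate left out, the difference between 48 h and 24 h lay between -0.025 and 0.0431 CPM, that between AS and DMSO between -0.00672 and 9.76e-05 CPM and that between Ibr and DMSO between -0.0236 and 0.0377 CPM. The difference between 72 h and 48 h remained positive, between 0.0658 and 0.112 CPM. So did the difference between Ibr + AS and DMSO, between 0.0189 and 0.0505 CPM, with adjusted exact permutation p-values of 0.188 to 0.469. That between 72 h and 24 h had an adjusted exact permutation p of 0.0498 with all 36 libraries. It did not pass in the main test without the third Ibr 72 h library (adjusted exact permutation p = 0.0732). Without replicate 1, 2 or 3 the adjusted exact permutation p was 0.375, 0.188 and 0.219. The cause was not tested. Depth limits what can be said of NDRG1, since a group of 3 libraries held at most 6 reads.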
